A study of Homo sapiens with 9 samples.

Results

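Macrophages that carried much proximity label after coculture with tumour cells, called proximal, were compared with macrophages from such cocultures that carried little, called distal. The comparison used 6 of the 9 libraries of the study, 3 proximal and 3 distal, chosen by their sample labels and by the count table that holds them. No measured value entered that rule, but earlier results of these data were known when the comparison was chosen. The tables name the gates by the letters H and L, read here as high and low labelling. No source used here spells these letters out, so every direction below rests on that reading. The 3 monocultured libraries serve only as a reference level.

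All 9 libraries came from THP-1, a line of human monocytic leukaemia cells with the labelled genotype WT, turned into macrophages by 48 h in 250 nM of the phorbol ester PMA. For the proximal and distal groups, HER2+ MDA-MB-231 cells, a triple-negative breast cancer line made to carry the HER2 receptor (gene ERBB2), were added for 24 h. The macrophage to tumour cell ratio is stated as 20 by the design text but as 40 by the protocol for growth. An affibody against HER2 that carried the enzyme beta-galactosidase (ZHER-βGal, 2 µg/mL, 30 min) then bound the tumour cells, and the enzyme turned a caged probe (gFQM-biotin or gFMeQM-biotin, 10 min) into a short-lived quinone methide that attached biotin to proteins nearby. Cells were taken up with trypsin and given streptavidin-AF647 over 30 min to make biotin visible, and were sorted on that signal. The sources used here do not say which of the probes served for these libraries or whether monocultured cells were labelled and sorted alike. Labels do not say that replicates were separate cultures, so p-values measure only the spread between these samples. All macrophages descend from 1 leukaemia line and all tumour cells from 1 cancer line, which limits what they can model.

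Macrophages beside a tumour can be turned towards inflammation, towards tissue repair or towards both. Inflammatory cytokine genes are switched on by NF-kappaB and AP-1 factors downstream of interleukin-1, TNF and Toll-like receptors, and the secreted chemokines call in neutrophils and monocytes. Matrix metalloproteinases, plasmin activators and integrins let macrophages cut and grip the matrix, and differentiating monocytes leave the cell cycle and silence progenitor regulators such as MYB.

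Polyadenylated RNA was read as 150 bp pairs, and each library held between 13581994 and 16447199 read pairs assigned to genes. Levels are CPM, read pairs relative to library size, scaled by TMM factors, and differences are log2 fold changes, proximal minus distal, ± their standard error (SE) from edgeR's quasi-likelihood fit. A gene is called higher or lower, and said to rise or fall, where its Benjamini-Hochberg adjusted p over all 15427 genes tested was under 0.05. Macrophage genes were abundant in both gates: LAPTM5 was at 3435, 3543 and 2902 CPM in the proximal and 2361, 2562 and 2449 CPM in the distal libraries, and CSF1R at 1609 ± 82.8 and 1286 ± 108 CPM (SD, n = 3 each). Both were called higher, LAPTM5 except with library totals and CSF1R except with library totals or upper-quartile factors. Of 20 macrophage markers 17 could be tested, and 8 were higher and 1, ITGAM, lower, where 8.40% of all genes tested were higher and 7.93% lower. Of all genes at over 100 CPM 25.4% were higher and 3.42% lower. CD68, MRC1 and AIF1 were listed at 0 to 10 pairs in every library and could not be judged, since pairs on overlapping genes or on a second copy of a sequence were not counted. Of 20 markers of MDA-MB-231 cells, the defining keratins were at or near 0: KRT18 had 0 pairs in all 9 libraries, KRT19 1 and KRT81 2, and KRT8 reached at most 1.78 CPM, in distal replicate 1. The same counting rule applied to these markers, so counts this low do not show that tumour RNA was absent. The 20 markers summed to 272.7 ± 7.24 CPM per proximal, 212.6 ± 5.67 CPM per distal and 174.6 ± 7.86 CPM per monocultured library (SD, n = 3 each, two-sided exact permutation p = 0.1 for proximal against distal, the smallest p this design allows). TEAD1, MYEOV and LAMB3 made up nearly all of that sum and were expressed without tumour cells too, and of the 12 markers tested 2 were higher (TEAD1 and MYEOV) and 2 lower (CCN1 and CCN2). With library totals none was higher in edgeR, and when 1 library was left out 0 to 3 were lower, with 0 without proximal replicate 2 or 3 or distal replicate 1 or 3. ERBB2, the receptor that the affibody bound, was at 19.1, 15.1 and 17.6 CPM in proximal, 43.2, 30.9 and 45.3 CPM in distal and 1.8, 1.64 and 1.13 CPM in monocultured libraries (log2 fold change -1.20 ± 0.16, adjusted p = 1.85e-04). Its level was thus lower in the gate read as proximal, in all 3 libraries, and the part of tumour RNA in this value was not tested.

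In these libraries 2519 genes differed between the gates, 16.3% of those tested: 1296 were higher in proximal macrophages (8.40%) and 1223 lower (7.93%), while 4578 had an unadjusted p under 0.05. In bulk RNA, fewer cells that express a gene and less RNA per cell cannot be told apart. Falls were larger than rises: the median called rise was 0.48 on the log2 scale and the median called fall -0.88. A change of at least 2-fold was reached by 99 risers (0.642%) and 517 fallers (3.35%), and one of over 4-fold by 4 risers and 79 fallers. The replicates of the gates did not overlap for 4865 genes (31.5%), and for 2449 of the 2519 called genes. Lack of overlap in a called gene below therefore adds little to its call. Risers were more frequent among abundant genes, and fallers most frequent at 1 to 10 CPM. Among the 2166 genes tested at over 100 CPM, 25.4% were higher and 3.42% lower, and the median log2 fold change of all of them was 0.16. Among the 5122 genes at 1 to 10 CPM, 2.25% were higher and 11.9% lower, with a median of -0.17. Among the 1766 genes under 1 CPM 0.736% were higher and 5.72% lower. Counts in the lists below stand against 8.40% higher and 7.93% lower of all genes tested. For lists of abundant genes, 25.4% higher and 3.42% lower at over 100 CPM are the closer shares. The part of level in the list counts was not tested. Library depth did not separate the gates, but at an equal depth of 13581994 pairs the distal libraries showed 24383 to 24891 genes with a pair and the proximal ones 22844 to 23399. The part of this difference in the calls was not tested.

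The split between rises and falls depended on the scaling. TMM factors were 0.9424 to 0.9581 in proximal and 1.058 to 1.076 in distal libraries. With library totals and no factors the median of all genes moved to -0.16, and 515 genes were higher and 2212 lower. With upper-quartile factors 816 were higher and 1572 lower. No gene called under TMM was called in the opposite direction by any of the 21 alternatives. Proximal replicate 3 and distal replicate 2 stood apart from their groups on the second principal component of the 6 libraries (24.5% of the variance), while the first (46.2%) split the gates. Without both libraries 2733 genes were higher and 2253 lower, without distal replicate 3 the counts were 757 and 768, and without distal replicate 1 they were 816 and 816.

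**Figure D1:**
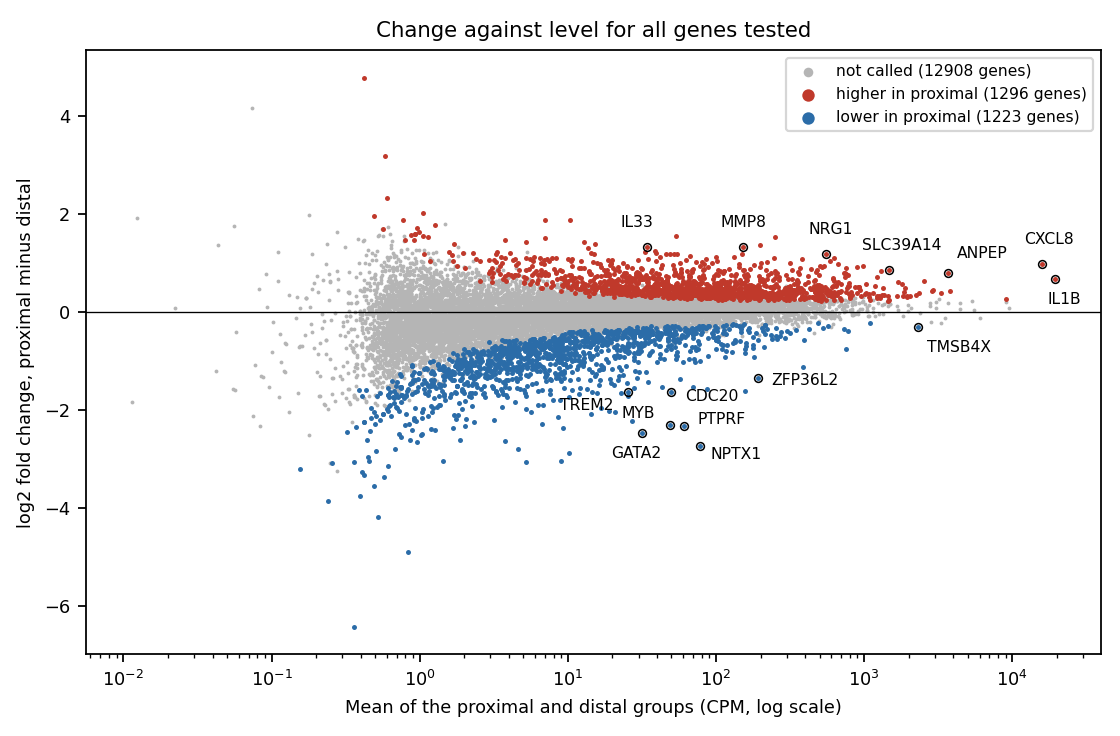
Each point is 1 of the 15427 genes tested, with its mean level in the proximal and distal libraries (CPM, log scale) on the x axis and its log2 fold change, proximal minus distal, on the y axis; red points are the 1296 genes called higher and blue points the 1223 called lower. Red points gather at high levels and small changes, whereas blue points reach further from 0 and lie mostly at low to middle levels.

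CXCL8, the interleukin-8 gene and a main attractant of neutrophils, was at 20939.7, 24459 and 17912 CPM in proximal and 10103, 11977 and 10215 CPM in distal libraries, against 5092 ± 415 CPM in monoculture. Among called genes whose values did not overlap between the gates, its gain in mean CPM was the largest (log2 fold change 0.97 ± 0.11, adjusted p = 4.50e-05). Of the 7 neutrophil-attracting CXC chemokine genes, which lie in 1 cluster on chromosome 4, 6 rose and none fell, with a median log2 fold change of 0.97 against 0.01 for all genes. CXCL1 stood at 863, 906 and 899 CPM in proximal and 442, 436 and 473 CPM in distal libraries. CXCL5 went from 28.3 ± 1.79 CPM in distal to 63.8 ± 3.71 CPM in proximal macrophages, CXCL6 from 66 ± 1.6 to 135 ± 8.61, CXCL3 from 617 ± 45.7 to 1164 ± 27.4 and CXCL2 from 524 ± 29.1 to 972 ± 64.4 (SD, n = 3 each). The seventh, PPBP, had 72 pairs in the 6 libraries and was not called. In every alternative 6 of the 7 were called higher, except that without mitochondrial and the 20 most abundant genes CXCL8 was not tested and the other 5 were called.

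In genome order the cluster runs from CXCL8 (chromosome 4, 73740541 to 73743716 in GRCh38.p13, as the count tables give it) through CXCL6, CXCL1, CXCL5 and CXCL3 to CXCL2 (74097040 to 74099196). Further along the chromosome EREG and AREG, which encode growth factors for the EGF receptor, were not called, at log2 fold changes of -1.52 ± 0.50 and 0.24 ± 0.09. Of the 9 genes tested in the list of this region 1, EREG, was lower with an unadjusted p under 0.05. With library totals, upper-quartile factors or the GC trend removed, 1 gene of this list was called lower. With the GC trend removed 7 were called higher, against 6 under TMM. EREG had 54 pairs in the 6 libraries, so a change in it was hard to detect at this depth.

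The sequences just before the start sites of the most abundant of these chemokine genes and of IL6 are shown because a match to 1 kind of NF-kappaB motif lies at nearly the same distance in all of them. Each line gives 150 bases that end at the base before the start site, from RefSeq (GRCh38.p14), on the gene's strand, with matches to GGANTTTCC on either strand in capitals. They lie at chr4:73869243-73869392 (plus strand), chr4:74099196-74099345 (minus), chr4:74038690-74038839 (minus), chr4:73740419-73740568 (plus) and chr7:22727050-22727199 (plus).
CXCL1: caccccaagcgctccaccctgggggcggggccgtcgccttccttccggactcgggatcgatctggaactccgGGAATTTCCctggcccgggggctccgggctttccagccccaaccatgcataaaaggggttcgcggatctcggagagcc
CXCL2: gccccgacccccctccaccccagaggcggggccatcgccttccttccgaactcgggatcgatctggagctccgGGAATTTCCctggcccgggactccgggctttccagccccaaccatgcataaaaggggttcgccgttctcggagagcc
CXCL3: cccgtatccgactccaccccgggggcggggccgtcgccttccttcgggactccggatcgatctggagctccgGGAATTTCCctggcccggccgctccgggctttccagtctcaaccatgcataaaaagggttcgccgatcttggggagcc
CXCL8: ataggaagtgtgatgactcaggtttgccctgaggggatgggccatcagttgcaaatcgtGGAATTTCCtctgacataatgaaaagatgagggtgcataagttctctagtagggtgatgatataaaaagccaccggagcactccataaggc
IL6: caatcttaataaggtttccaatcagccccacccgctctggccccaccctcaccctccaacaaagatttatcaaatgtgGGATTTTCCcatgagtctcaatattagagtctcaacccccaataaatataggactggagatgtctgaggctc

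The match GGAATTTCC spanned bases -78 to -70 from the start in CXCL1 and CXCL3, -77 to -69 in CXCL2 and -91 to -83 in CXCL8, and IL6 held GGATTTTCC at -72 to -64. In windows from 250 bases before to 50 after the start, 6 of the 7 CXC chemokine promoters held this motif (85.7%), against 1.64% of all 27305 promoters in the table and 1.65% of the 10544 that belonged to genes tested. Of 7 CC chemokine promoters in the table none held these letters, and of 16 promoters of NF-kappaB subunits and feedback genes 5 did (31.2%). Among all called genes the share was 2.28% for those higher and 2.14% for those lower. A match describes letters and not a bound site.

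Interleukin-1 genes rose with the chemokines. IL1B, the most abundant transcript in 5 of the 6 libraries, was at 24225, 23746 and 22947 CPM in proximal and 14394, 15376 and 15026 CPM in distal macrophages (log2 fold change 0.66 ± 0.06, adjusted p = 1.43e-05). IL1A, an alarmin that acts on the same receptor, was at 356, 391 and 266 CPM in proximal and 149, 179 and 144 CPM in distal libraries, and the nuclear alarmin IL33 at 56.9, 53.9 and 36.7 and 16.9, 22.5 and 19.5 CPM. In none of the 3 did the gates overlap, although proximal replicate 3 was the lowest proximal library each time. IL36G, which is best known from epithelium, reached 19.9 ± 1.29 CPM in proximal and 9.85 ± 0.78 CPM in distal libraries against 0.206 ± 0.0793 CPM in monoculture. On the restraining side, the decoy receptor IL1R2 (log2 fold change 1.06 ± 0.13) and the antagonist IL1RN (0.63 ± 0.07) rose as well, as did the signalling receptor IL1R1 (0.75 ± 0.14). Of the 13 family members tested, 7 rose and none fell, with a median of 0.66, while IL18 was not called at -0.36 ± 0.17. With library totals 1 member fell and 7 rose.

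Ligands of the interleukin-6 and colony-stimulating factor families rose while several of their receptors fell. IL6 was at 44.2, 46 and 49.2 CPM in proximal, 17.6, 19.3 and 22.6 CPM in distal and 0.208, 0.0711 and 0 CPM in monocultured libraries (log2 fold change 1.23 ± 0.15, adjusted p = 7.29e-05). CSF3, the granulocyte colony-stimulating factor, was at 199, 217 and 207 CPM in proximal and 90.3, 91 and 92.8 CPM in distal libraries, and CSF2, the granulocyte-macrophage factor, at 93, 89.4 and 93.5 and 44.8, 36.9 and 43.6 CPM. All 3 genes separated the gates without overlap. Of 8 ligands tested 6 rose and none fell, the others being IL11 (log2 fold change 1.46 ± 0.22), LIF (0.78 ± 0.14) and CLCF1 (0.82 ± 0.17). Of 8 receptors 2 rose and 3 fell: the receptor for CSF3, CSF3R, fell by 1.49 ± 0.11 on the log2 scale (from 30.1 ± 2.2 to 10.7 ± 0.829 CPM), IL11RA by 0.86 ± 0.14 and IL6R by 0.39 ± 0.08, whereas OSMR rose by 1.05 ± 0.13 and CSF1R by 0.32 ± 0.08.

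Further signals were mixed. In the interleukin-12 group IL12B, which encodes the p40 chain, went from 73.7 ± 5 to 126 ± 6.16 CPM, and EBI3 from 406 ± 34.3 to 535 ± 46 (not called with library totals), whereas IL16 fell by 0.77 ± 0.11 on the log2 scale. Among CC chemokines 4 of 10 tested rose (40.0%) and 1 fell (10.0%), against 8.40% and 7.93% of all genes tested. CCL20, the ligand of CCR6, was at 1643, 1767 and 1613 CPM in proximal and 921, 957 and 938 CPM in distal libraries, and CCL2, which recruits monocytes, at 50.1 ± 4.77 and 30.6 ± 3.53 CPM. Both separated the gates. CCL4 was scarce, at 12.2, 16.5 and 4.33 against 2.06, 3.85 and 2.98 CPM, and its copy CCL4L2 was at 79.5 ± 30.5 against 27.2 ± 4.97 CPM (not called when scarce genes were kept in). CCL3L3, a copy of CCL3, was at 369 ± 118 against 128 ± 7.8 CPM. Among called genes at 20 CPM or more without overlap between the gates, these copies had the largest rises. Near-identical copies share reads, so that the counts of each are uncertain. In the TNF superfamily 5 of 19 rose (26.3%) and 4 fell (21.1%), against 8.40% and 7.93% of all genes tested. Risers included TNFSF15 (0.65 ± 0.10) and TNFRSF11A, the RANK receptor (1.03 ± 0.21). Fallers included TNFSF10, which encodes TRAIL (-1.58 ± 0.16, from 20.1 ± 3.2 to 6.72 ± 1.01 CPM), and TNFRSF9 (-0.68 ± 0.12). Without distal replicate 3 the count of rising members was 4, and over the 9 fits that left out 1 library it ran from 3 to 6. TNF itself stands on several sequences of the annotation, had no pair in 5 of the 6 libraries and could not be judged.

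Growth factors added ligands of the EGF receptor family. NRG1, neuregulin, which binds ERBB3 and ERBB4 and so engages ERBB2, was at 769, 820.0 and 705 CPM in proximal, 341, 339 and 329.7 CPM in distal and 256, 254 and 284 CPM in monocultured libraries (log2 fold change 1.18 ± 0.08, adjusted p = 1.11e-06). Its distal libraries lay within 15 CPM of each other and far under the lowest proximal one. HBEGF rose by 0.67 ± 0.07, and ERRFI1, an inhibitor of EGF receptor kinases, went from 8.72 ± 0.822 to 20.1 ± 0.103 CPM. Of 20 growth and angiogenic factors tested 5 rose (25.0%) and 1 fell (5.0%), against 8.40% and 7.93% of all genes tested. INHBA, a chain of activin, rose by 0.85 ± 0.09, VEGFC by 0.92 ± 0.11, THBS1 by 0.72 ± 0.11 and BMP6 by 0.59 ± 0.12, whereas GDF15 fell from 96.3 ± 6.74 to 47.1 ± 4.17 CPM. VEGFA was not called, at 0.18 ± 0.09.

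**Figure D2:**
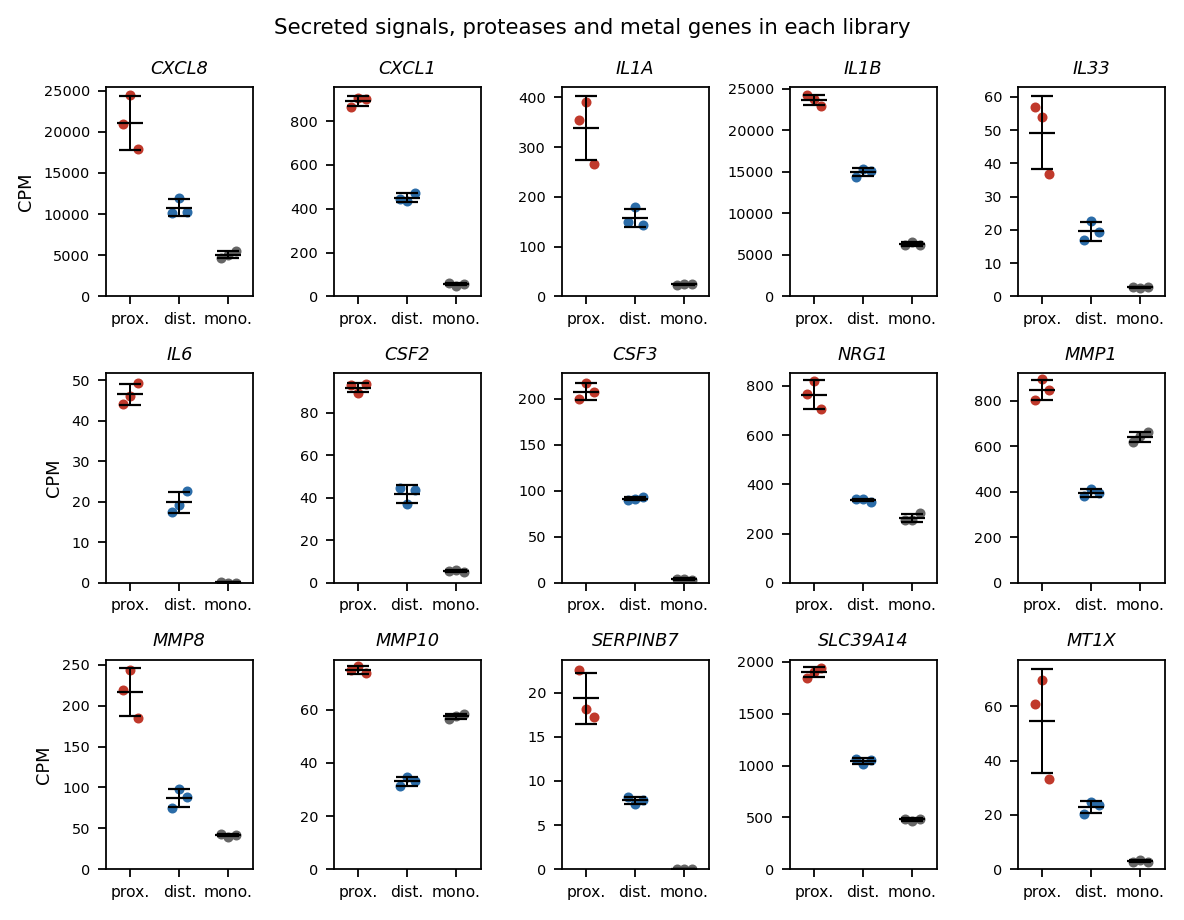
Each panel shows the level (CPM, from 0) of 1 gene in the 3 proximal, 3 distal and 3 monocultured libraries; points are libraries, and the bar with caps is the mean ± SD. All 15 genes were picked from those called higher, and in all 15 panels every proximal library lies above every distal one. The monocultured level is lower than the distal one except for MMP1 and MMP10.

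Among chemokine receptors more fell than rose. CX3CR1, the fractalkine receptor, was at 4.52, 5.57 and 4.59 CPM in proximal and 13.8, 12.6 and 12.5 CPM in distal libraries, against 27.6 ± 3.53 CPM in monoculture. CCR2, the receptor of CCL2, was at 0.0741, 0.0733 and 0.129 CPM in proximal, 1.03, 1.28 and 0.852 CPM in distal and 7.28, 10.5 and 8.88 CPM in monocultured libraries. Neither gene overlapped between the gates, although CCR2 in proximal libraries rests on 1 or 2 pairs per library. CXCR2, the receptor of most of the CXC chemokines above, fell by 1.97 ± 0.35 on the log2 scale, from at most 2.56 CPM, and CCR7 fell by 0.48 ± 0.10. Of 10 such receptors tested 4 fell and 1 rose, namely C5AR1, the receptor of complement fragment C5a, from 96.1 ± 6.18 to 189.7 ± 10 CPM. Its relative C5AR2 rose from 32 ± 4.48 to 72.4 ± 8.32 CPM.

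The genes of the NF-kappaB factors themselves were not called. None of the 5 subunit genes passed in edgeR or DESeq2, and 1 had an unadjusted p under 0.05, with log2 fold changes from -0.21 (NFKB1) to 0.11 (RELA). Of 13 inhibitor and feedback genes 4 rose and 1 fell, and over subunits and feedback genes together 2 to 5 rose in the 9 fits that left out 1 library. BIRC3, which encodes a ubiquitin ligase of TNF receptor complexes, rose by 0.59 ± 0.13, and TNFAIP3, which encodes the inhibitor A20, fell from 624 ± 17.3 to 508 ± 25 CPM, a call that was lost without proximal replicate 1 (adjusted p up to 0.0608 over the 9 fits that left out 1 library). NFKBIA was at 0.025 ± 0.084. In the Toll-like receptor list 4 of 15 rose (26.7%) and 2 fell (13.3%), against 8.40% and 7.93% of all genes tested. Risers included the co-receptor CD14 (0.59 ± 0.10) and the kinase IRAK2 (0.46 ± 0.07), while TLR7 (-1.52 ± 0.20) and the inhibitory IRAK3 (-0.65 ± 0.14) fell. With library totals 1 NF-kappaB gene rose and 3 fell.

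Several early-response transcription factors fell. NR4A1, an orphan nuclear receptor induced early by many stimuli, was at 3.04, 3.37 and 5.3 CPM in proximal and 14.7, 13.9 and 12.7 CPM in distal libraries (log2 fold change -1.81 ± 0.22, adjusted p = 8.39e-05). NR4A2 was at 7.86, 8.36 and 11 and 18.5, 23.8 and 23.5 CPM, and KLF4 at 8.52, 8.36 and 9.3 and 18.5, 19.8 and 22.8 CPM. The gates did not overlap for any of the 3. Of 21 such factors 9 fell and 1, KLF6, rose; EGR1 fell by 0.50 ± 0.08, EGR2 by 0.67 ± 0.09, ATF3 by 0.58 ± 0.08 and NR4A3 by 0.69 ± 0.12. The AP-1 subunit FOS fell too (log2 fold change -0.32), but its call was lost in 4 of the 9 fits that left out 1 library. Those were the fits without proximal replicate 1 or 2 or distal replicate 1 or 3 (adjusted p up to 0.127). The AP-1 subunits JUN (0.011 ± 0.13), JUNB (-0.091 ± 0.19), FOSL1 (0.037 ± 0.13) and FOSL2 (-0.032 ± 0.11) were not called. The count of falling members ran from 7 to 13 over the alternatives.

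Feedback genes of the ERK pathway, whose products switch it off again, rose in part. DUSP5 was at 304, 322 and 336 CPM in proximal and 191, 184 and 192 CPM in distal libraries, and SPRY4 at 188, 184 and 211 and 125, 106 and 113 CPM. Neither overlapped between the gates. Of 13 members 6 rose and 2 fell, DUSP6 rising by 0.47 ± 0.07 and SPRED1 by 0.58 ± 0.10, and DUSP7 falling by 0.50 ± 0.08. In the JAK-STAT list SOCS1, an inhibitor of cytokine signalling, fell by 1.80 ± 0.33 from 2.31 ± 0.705 CPM, whereas SOCS3 (0.35 ± 0.15) and STAT3 (0.21 ± 0.07) were not called.

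Proteases that cut the matrix formed a run of risers on chromosome 11. MMP8, the neutrophil collagenase, was at 219.7, 244 and 185 CPM in proximal, 75.4, 97.5 and 88 CPM in distal and 43.6, 40 and 42 CPM in monocultured libraries (log2 fold change 1.31 ± 0.12, adjusted p = 7.13e-06). MMP1, the interstitial collagenase, was at 805, 895 and 846 CPM in proximal and 379.8, 413 and 395 CPM in distal libraries, and the stromelysin MMP10 at 74.9, 76.5 and 73.7 and 31.3, 34.8 and 33.2 CPM. All 3 separated the gates. Of the 6 tested genes of the cluster, which runs from MMP7 (102520508 to 102530750) to MMP13 (102942995 to 102955732, GRCh38.p13), 5 rose and none fell, with a median of 1.08. MMP3 rose from 12.9 ± 0.9 to 27 ± 0.823 CPM, and MMP12, with 48 pairs in the 6 libraries, was not called. MMP7 rose least (0.39 ± 0.12), and its call was lost in 7 of the 9 fits that left out 1 library, all but those without proximal replicate 3 or monocultured replicate 1 (adjusted p up to 0.148). Of 9 gelatinases and membrane-type enzymes outside the cluster 2 rose and 3 fell. MMP9 rose from 1442 ± 150.0 to 2149.6 ± 397 CPM, whereas MMP25 (-1.20 ± 0.28), MMP17 (-0.67 ± 0.18) and MMP2 (-0.41 ± 0.13) fell, and without distal replicate 3 none of these 3 was called (adjusted p up to 0.069, 0.106 and 0.166 over the 9 fits that left out 1 library). MMP17 also lost its call without proximal replicate 1 or 2 or distal replicate 1, and MMP2 in every such fit but that without proximal replicate 3. Of 5 inhibitors 2 rose and 1 fell, where TIMP1 rose by 0.57 ± 0.07 and TIMP3 by 0.65 ± 0.09.

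Genes that make plasmin and its serpin inhibitors rose too. PLAU, the urokinase that makes plasmin, was at 411, 401 and 457 CPM in proximal and 223, 191 and 220.4 CPM in distal libraries, and the tissue factor gene F3 at 134, 135 and 129.7 and 69.5, 77.4 and 74.2 CPM. THBD, thrombomodulin, went from 366 ± 24.6 to 705 ± 45.4 CPM. Of 15 genes tested 9 rose and none fell, with a median of 0.60. In the serpin B cluster on chromosome 18 all 4 genes that could be tested rose: SERPINB7 was at 22.6, 18.2 and 17.3 CPM in proximal, 8.23, 7.36 and 7.79 CPM in distal and 0, 0 and 0 CPM in monocultured libraries, SERPINB4 went from 4.38 ± 0.345 to 16.2 ± 2.27 CPM, SERPINB2 from 14 ± 0.324 to 26.1 ± 2.85 and SERPINB8 from 67.2 ± 3.61 to 88.3 ± 12.7. The gates did not overlap for any of the 4, SERPINB4 shares much sequence with SERPINB3 so that its count is uncertain, and SERPINB8 lost its call in 4 of the 9 fits that left out 1 library, those without proximal replicate 1 or 2 or distal replicate 1 or 3 (adjusted p up to 0.109). The other 6 genes of the cluster had 8 pairs or fewer in the 6 libraries.

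Among integrins several matrix-binding chains rose, while leukocyte chains rose or fell. ITGA1, the collagen-binding alpha-1 chain, was at 535, 598 and 419.7 CPM in proximal, 235, 269.8 and 227 CPM in distal and 6.24, 6.61 and 6.55 CPM in monocultured libraries (log2 fold change 1.09 ± 0.12, adjusted p = 3.12e-05). ITGB3 was at 236, 239 and 244 CPM in proximal and 128, 120.2 and 119.9 CPM in distal libraries, ITGB8 went from 53.3 ± 5.7 to 102 ± 16.6 CPM, and ITGB1, the shared partner of most matrix receptors, from 557 ± 47.1 to 947 ± 102. In contrast ITGAL, the alpha chain of LFA-1, fell from 217 ± 14.7 to 136 ± 14.9 CPM, ITGA4 from 59 ± 9.38 to 36.3 ± 5.85 and ITGAM from 55.1 ± 3.24 to 41.9 ± 1.41. ITGB2, the beta chain that pairs with ITGAL and ITGAM, rose from 3234 ± 320.4 to 4314 ± 431 CPM, except with library totals, where it was not called. Of 17 chains tested 9 rose and 3 fell, and of 15 linkers to actin 7 rose and 1 fell, among them FERMT2, kindlin-2 (1.42 ± 0.15), CAV1 (1.01 ± 0.15), PARVA, parvin (0.53 ± 0.10), and TLN1, talin (0.41 ± 0.08). Over both groups 16 members rose and 4 fell under TMM, and 9 rose and 6 fell with library totals. Of 15 collagen, laminin and related matrix genes 5 rose and 3 fell: LAMC1 (0.81 ± 0.07), COL6A1 (0.53 ± 0.12), COL6A2 (0.53 ± 0.12), COL1A1 (0.62 ± 0.10) and FN1 (0.51 ± 0.09) rose, whereas the laminin chain LAMA3 fell from 8.06 ± 1.25 to 1.14 ± 0.236 CPM. COL4A1 (-1.60 ± 0.51) and COL8A2 (-1.08 ± 0.28) fell too, but COL4A1 lost its call in all 9 fits that left out 1 library and COL8A2 in 4, those without proximal replicate 1 or 2 or distal replicate 1 or 3 (adjusted p up to 0.15 and 0.0869).

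Among the lists, cell cycle genes held the most falls. Of 50 genes of mitosis tested 45 fell and 1 rose, with a median of -0.96, against 7.93% of all genes called lower. CDC20, which activates the ubiquitin ligase that ends mitosis, was at 24.3, 23.1 and 25.8 CPM in proximal, 78.9, 72.4 and 75.3 CPM in distal and 89.2, 76.2 and 82.3 CPM in monocultured libraries (log2 fold change -1.63 ± 0.10, adjusted p = 4.77e-07). PLK1, a kinase of spindle assembly, was at 8.6, 9.16 and 8.01 CPM in proximal and 22.3, 23.6 and 26.2 CPM in distal libraries, and MKI67, which encodes the proliferation antigen Ki-67, at 54.3, 49.8 and 39.1 and 89.9, 99.7 and 89.9 CPM. For each of the 3 the highest proximal library lay under the lowest distal one. By role, 14 of 15 kinases and cyclins fell (BUB1B -1.27 ± 0.19, AURKB -1.52 ± 0.24, CCNA2 -0.97 ± 0.16, CCNB1 -0.87 ± 0.15, CDK1 -0.89 ± 0.20), 15 of 17 kinetochore and spindle genes fell (CENPF -1.45 ± 0.15, ASPM -1.39 ± 0.19, KIF20A -1.31 ± 0.17), and 16 of 18 genes of mitotic exit, chromosome structure and survival fell (BIRC5 -1.40 ± 0.12, LMNB1 -1.57 ± 0.09, TOP2A -0.96 ± 0.14, and the activators FOXM1 -1.21 ± 0.22 and MYBL2 -1.17 ± 0.15). The exception CCNF, which encodes cyclin F, was at 0.40 ± 0.13, and its call was lost in 8 of the 9 fits that left out 1 library, all but that without proximal replicate 3 (adjusted p from 0.0184 to 0.145). Between 40 and 47 of the 50 fell in every alternative.

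DNA replication genes fell too. Of 28 origin licensing and fork genes 21 fell and none rose. ORC1, of the origin recognition complex, was at 6.82, 6.96 and 6.01 CPM in proximal and 13.7, 14.8 and 13.8 CPM in distal libraries, and CDT1, which loads the replicative helicase, at 3.85, 4.84 and 6.07 and 13, 11.7 and 13.1 CPM. Both separated the gates. GINS2 (-1.54 ± 0.23), CDC45 (-1.15 ± 0.15), MCM10 (-1.09 ± 0.25) and TK1 (-0.91 ± 0.14) fell, whereas MCM4 (-0.13 ± 0.09) and MCM5 (-0.27 ± 0.10) were not called. Among 13 cyclins, kinases and E2F factors of the G1 phase the pattern was sparse: E2F1 fell by 0.89 ± 0.18, and CCND1, cyclin D1, rose from 565 ± 7.45 to 921 ± 45.1 CPM. CDKN1A, the inhibitor p21, rose from 1341 ± 109.7 to 2048 ± 259 CPM, and CDKN2C, the inhibitor p18, fell from 31.6 ± 1.98 to 12.8 ± 2.76 CPM. Over the whole list of 41 tested genes, between 16 and 28 fell under the alternatives.

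Sequences before the start sites of mitotic genes are shown for the cell cycle element that many of them share, the CHR (TTTGAA), which lies close to CCAAT boxes (CCAAT) in genes held silent in resting cells. E2F1 is added for the E2F-type letters TTTNNCGC. Each line again gives 150 bases up to the start, from RefSeq (GRCh38.p14), with CHR and CCAAT matches on either strand in capitals for PLK1, CCNB2 and CDC20, and E2F-type matches for E2F1. They lie at chr16:23678739-23678888 (plus strand), chr15:59104996-59105145 (plus), chr1:43358831-43358980 (plus) and chr20:33686386-33686535 (minus).
PLK1: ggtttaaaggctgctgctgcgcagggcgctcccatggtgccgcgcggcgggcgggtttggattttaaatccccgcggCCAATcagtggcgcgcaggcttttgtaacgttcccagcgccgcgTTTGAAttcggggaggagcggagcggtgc
CCNB2: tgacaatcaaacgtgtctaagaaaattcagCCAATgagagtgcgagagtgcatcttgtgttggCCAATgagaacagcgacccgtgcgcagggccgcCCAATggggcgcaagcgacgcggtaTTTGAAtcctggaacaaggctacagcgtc
CDC20: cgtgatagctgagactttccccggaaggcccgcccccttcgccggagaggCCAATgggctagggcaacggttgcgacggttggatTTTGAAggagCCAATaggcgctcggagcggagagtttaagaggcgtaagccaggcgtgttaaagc
E2F1: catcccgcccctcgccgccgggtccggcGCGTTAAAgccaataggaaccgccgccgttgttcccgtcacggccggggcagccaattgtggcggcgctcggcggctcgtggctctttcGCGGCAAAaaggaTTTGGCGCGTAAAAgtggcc

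The CHR spanned bases -29 to -24 in both PLK1 and CCNB2 and -65 to -60 in CDC20, with CCAAT boxes further upstream at -73 to -69 in PLK1 and -54 to -50 in CCNB2. In CDC20 the nearer CCAAT box lay downstream of it, at -55 to -51. In the windows of 300 bases, 26 of 42 mitotic promoters held a CHR (61.9%) against 15.4% of all promoters and 10.0% of those of genes tested, and 29 of 42 held a CCAAT box (69.0%) against 35.7% and 36.5%. E2F-type letters were in 19 of 34 G1-S promoters (55.9%) against 6.90% of all and 10.3% of those tested, and in 4 of 42 mitotic ones (9.52%). Among all genes called lower the shares were 14.4% for CHR and 11.6% for E2F-type letters.

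**Figure D3:**
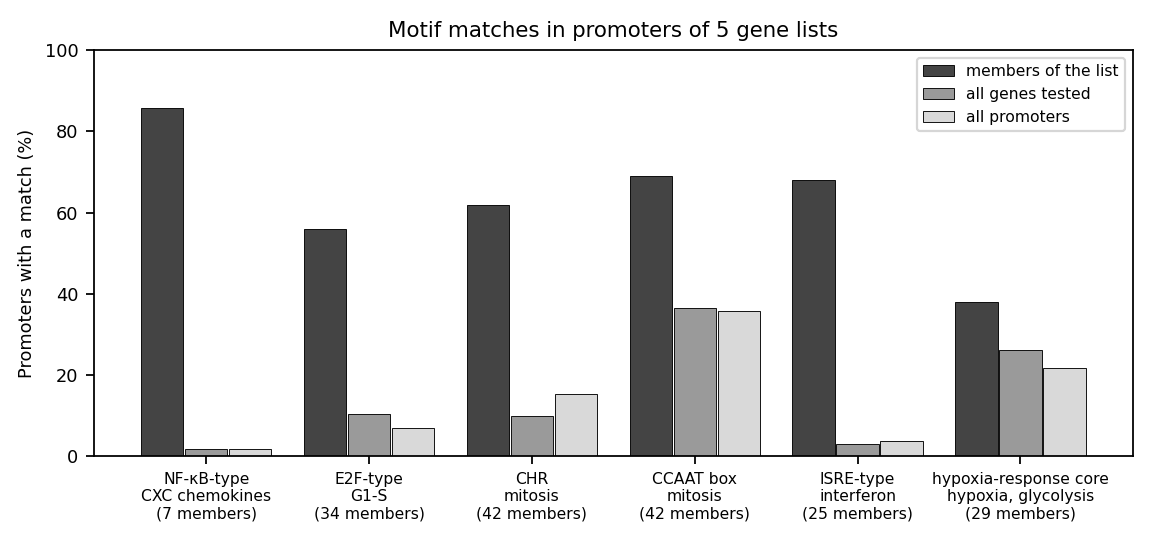
Bars give the percent of promoters (250 bases before to 50 after the start) with a match to each motif on either strand, for the members of a gene list that were tested, for all 10544 promoters of genes tested and for all 27305 promoters of the table. The list bar reaches 85.7% for NF-kappaB-type letters in CXC chemokine promoters and 61.9% for CHR in mitotic promoters, against 1.65% and 10.0% of genes tested.

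**Figure D4:**
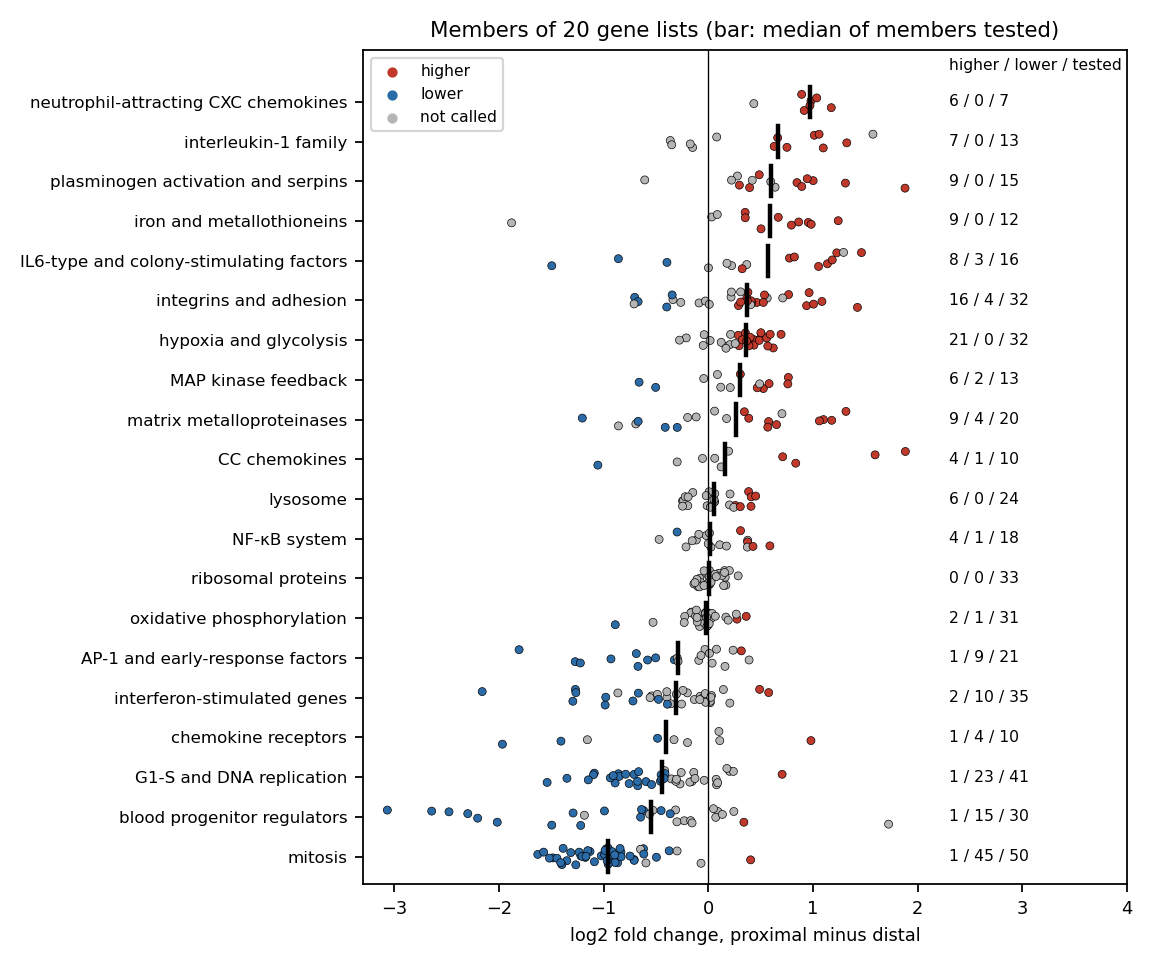
Each point is a tested member of 1 of 20 gene lists, with its log2 fold change, proximal minus distal, on the x axis; red is called higher, blue called lower and grey not called, and the black bar is the median. Where 1 of these lists had no member called in a direction, DESeq2 called none there either, except 1 lysosomal gene that was lower. Medians run from 0.97 for CXC chemokines to -0.96 for mitosis, and the 33 ribosomal protein genes lie close to 0 with none called.

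Among regulators of blood progenitors 15 of 30 fell, several of them further than any mitotic gene tested. GATA2, a factor of stem and progenitor cells, was at 8.82, 7.84 and 12.1 CPM in proximal, 54.1, 50.4 and 56.2 CPM in distal and 55.2, 42 and 49.8 CPM in monocultured libraries (log2 fold change -2.48 ± 0.15, adjusted p = 6.20e-07). MYB, which keeps immature myeloid cells dividing, was at 18.3, 15.6 and 15.8 CPM in proximal and 70.8, 90.9 and 82.8 CPM in distal libraries, and the repressor GFI1 at 6.23, 6.67 and 9.43 and 32.5, 27.9 and 30.4 CPM. In each case all proximal values lay far under all distal ones. HOXA9 fell from 10.1 ± 0.893 to 4.13 ± 0.216 CPM and CEBPA from 42 ± 7.76 to 17.9 ± 8.92 CPM (not called when scarce genes were kept in), and RUNX3 rose by 0.34 ± 0.08, except with library totals, where it was not called. Of 23 such factors 9 fell and 1 rose, while RUNX1 (0.093 ± 0.078), MEIS1 (-0.17 ± 0.56) and FLI1 (0.071 ± 0.094) were not called. Of 7 progenitor receptors and surface genes 6 fell: the cytokine receptor FLT3 was at 1.41, 1.1 and 0.905 CPM in proximal, 4.46, 5.67 and 5.54 CPM in distal and 15.3, 17.4 and 19.6 CPM in monocultured libraries, RHEX went from 9.26 ± 0.801 to 1.09 ± 0.271 CPM, TREML1 from 6.48 ± 0.257 to 1.03 ± 0.255 and SPN, leukosialin, from 195 ± 10 to 125 ± 8.16. Over both groups 11 to 18 genes fell in the alternatives.

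Several genes of the HOXA cluster on chromosome 7, held active in THP-1 cells by their KMT2A fusion, fell. Beside HOXA9, which spans 27162438 to 27175180 in GRCh38.p13, those that fell were HOXA10 (-0.99 ± 0.18), HOXA11 (-2.11 ± 0.32), HOXA5 (-1.39 ± 0.29) and HOXA3 (-1.75 ± 0.47), all at under 12 CPM in every library of the 6. HOXA3, with 61 pairs in the 6 libraries, lost its call in 4 of the 9 fits that left out 1 library, those without proximal replicate 1 or 2 or distal replicate 1 or 3 (adjusted p up to 0.0996). Gene models of this cluster overlap, and pairs in the overlaps were not counted, so that these levels are uncertain. Of 9 granule genes 3 rose and 1 fell: S100A9 rose from 9.15 ± 1.93 to 20.7 ± 4.59 CPM and S100A8 from 2.83 ± 0.482 to 6 ± 2.04 CPM, the latter not called without proximal replicate 3 (adjusted p up to 0.0503).

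**Figure D5:**
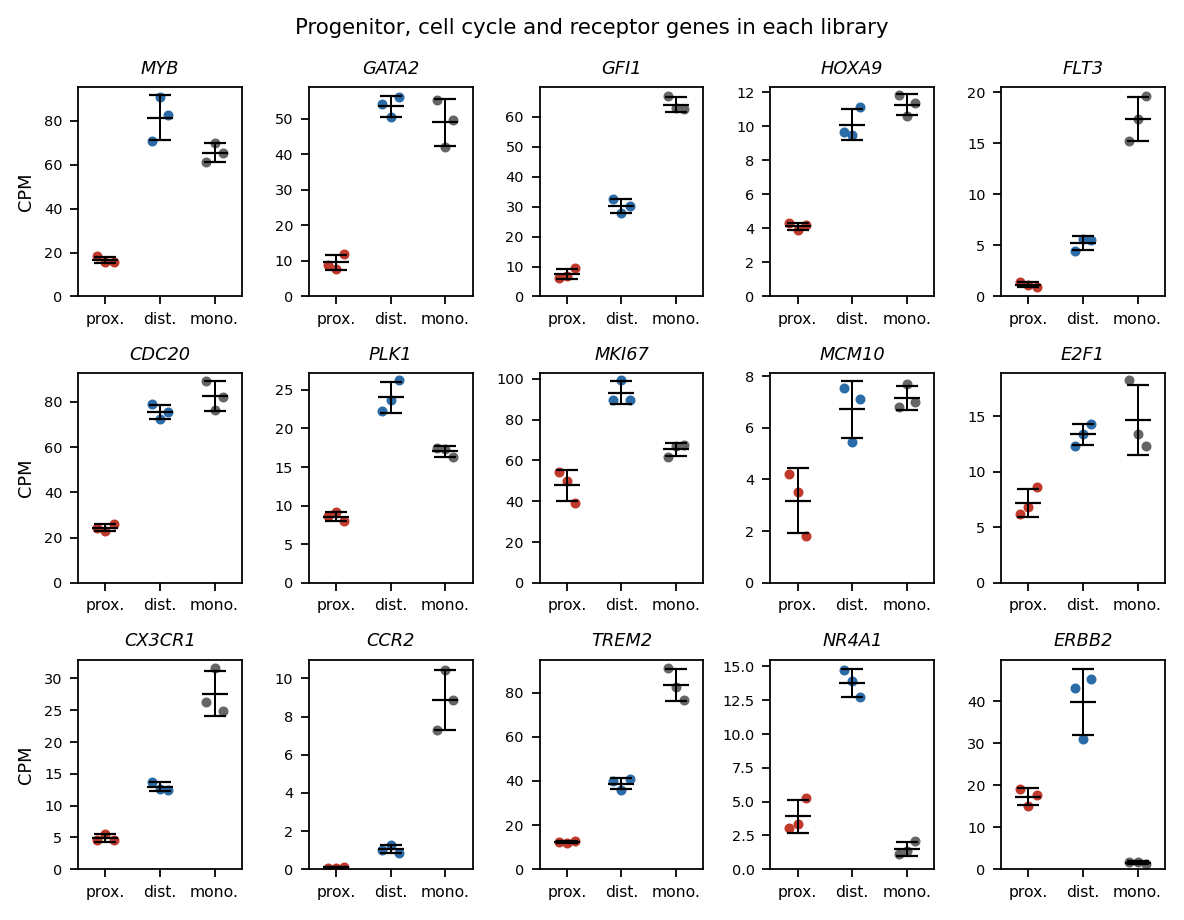
Each panel shows the level (CPM, from 0) of 1 gene in the 3 proximal, 3 distal and 3 monocultured libraries; points are libraries, and the bar with caps is the mean ± SD. All 15 genes were picked from those called lower, and in all 15 panels every proximal library lies below every distal one. The monocultured level lies above the distal one for genes such as FLT3, CCR2 and TREM2 but far below it for ERBB2 and NR4A1.

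Genes of uptake and clearance fell or rose. TREM2, a lipid-sensing receptor of tumour and adipose macrophages, was at 12.5, 12.1 and 12.8 CPM in proximal, 39.9, 35.8 and 40.8 CPM in distal and 91, 82.5 and 76.8 CPM in monocultured libraries (log2 fold change -1.64 ± 0.11, adjusted p = 7.28e-07). Of 17 scavenger, clearance and Fc receptor genes, which do not include TREM2, 4 fell and 2 rose. AXL, which binds dying cells through GAS6, went from 8.91 ± 1.43 to 3.23 ± 0.75 CPM and GAS6 from 11.6 ± 1.69 to 6.43 ± 0.257, and the high-affinity Fc receptor FCGR1A from 13.1 ± 1.76 to 5.7 ± 0.922. The direction was not shared by the whole group, since CD163, a haemoglobin scavenger receptor, rose from 2.06 ± 0.271 to 4.31 ± 0.839 CPM. Of 26 genes of lipid-associated macrophages, TREM2 among them, 7 rose (26.9%, 4 genes without distal replicate 3) and 4 fell (15.4%). The shares of all genes tested were 8.40% and 7.93%. The uptake receptors MSR1 and LRP1 rose from 3.98 ± 0.361 to 6.45 ± 0.937 and from 156 ± 11.8 to 242 ± 10.3 CPM. SPP1, osteopontin, rose from 366 ± 28.7 to 619 ± 62.6 CPM and LPL fell from 48.2 ± 5.57 to 33.4 ± 4.81, while APOE (0.19 ± 0.13), GPNMB (0.14 ± 0.10) and CD36 (-0.0069 ± 0.18) were not called. Of 22 sterol and fatty acid genes 3 rose and none fell, and SQLE (0.51 ± 0.07) kept its call in every alternative.

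Interferon-stimulated genes fell in part and at low levels. Of 35 tested 10 fell (28.6%) and 2 rose (5.71%), against 7.93% and 8.40% of all genes tested, with a median of -0.31. CMPK2 was at 3.41, 2.64 and 2.97 CPM in proximal and 7.82, 7.9 and 6.45 CPM in distal libraries, IFIT2 went from 6.71 ± 1.36 to 2.78 ± 1.18 CPM and MX2 from 8.04 ± 1.24 to 4.08 ± 1.29. The gates were separate for these genes. The factor IRF8 fell from 86.1 ± 1.28 to 52.3 ± 0.804 CPM, whereas IRF2 rose by 0.49 ± 0.09, and ISG15 (-0.24 ± 0.16), MX1 (-0.56 ± 0.57) and OAS1 (-0.051 ± 0.12) were not called. IFI6, the other riser (0.58 ± 0.14), was not called with library totals or without proximal replicate 3 and distal replicate 2. Between 7 and 16 members fell under the alternatives. ISRE-type letters (TTTC, any 2 bases and TTTC again) were in 17 of 25 of their promoters (68.0%), against 3.65% of all promoters and 4.06% of those of genes called lower. In antigen presentation CD74, the invariant chain, fell from 202 ± 18.5 to 113 ± 4.58 CPM, none of 7 class I genes was called by edgeR (2 had an unadjusted p under 0.05 and 2 were called by DESeq2, all higher), and the guanylate-binding proteins split, with GBP1 at 1.04 ± 0.24 and GBP4 at -0.96 ± 0.13.

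Genes that restrain T cells or make lipid mediators held strong risers. CD274, which encodes PD-L1, was at 59.1, 56.4 and 43.3 CPM in proximal, 24, 28 and 25.4 CPM in distal and 1.32, 1.56 and 1.51 CPM in monocultured libraries (log2 fold change 1.03 ± 0.13, adjusted p = 9.88e-05). PTGS2, cyclooxygenase-2, was at 822, 898 and 657 CPM in proximal and 362, 432 and 358 CPM in distal libraries, and IDO1, which degrades tryptophan, at 85.3, 82.9 and 57.8 and 39.6, 42.4 and 42 CPM. The gates did not overlap for any of the 3. NT5E, the ectoenzyme CD73 that makes adenosine, went from 671 ± 48.2 to 1277 ± 159 CPM and ADA, which removes it, from 50.9 ± 1.72 to 78.5 ± 2.23, while ENTPD1, the enzyme CD39, fell from 6.75 ± 0.628 to 3.02 ± 0.673. Of 15 checkpoint and adenosine genes 4 rose (26.7%) and 2 fell (13.3%). Of 16 eicosanoid and tryptophan genes 5 rose (31.2%, 3 genes without distal replicate 3) and 3 fell (18.8%). Of all genes tested 8.40% were higher and 7.93% lower, and of those at over 100 CPM 25.4% and 3.42%. PTGER4, the prostaglandin receptor EP4, fell from 466 ± 30.6 to 313 ± 16.8 CPM, and ALOX5AP from 197 ± 5.15 to 118 ± 5.57.

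Metallothioneins, small proteins that bind zinc and copper, rose together with metal carriers. MT2A was at 309, 341 and 249.5 CPM in proximal, 147, 186 and 186 CPM in distal and 7.63, 5.19 and 6.36 CPM in monocultured libraries. SLC39A14, an importer of zinc, iron and manganese, was at 1848, 1904 and 1944 CPM in proximal and 1063, 1016 and 1053 CPM in distal libraries (log2 fold change 0.86 ± 0.07, adjusted p = 3.28e-06), and MT1X at 60.7, 69.7 and 33.1 and 20.5, 24.8 and 23.8 CPM. All 3 separated the gates, and proximal replicate 3 was the lowest proximal library for MT1X. Of 12 genes of metal transport and storage tested 9 rose and none fell, with a median of 0.59: MT1E (0.95 ± 0.17), MT1G (0.98 ± 0.15), MT1F (0.67 ± 0.12) and the mitochondrial iron importer SLC25A37 (0.50 ± 0.07) were among them. The MT1 genes are near-identical, so that the split among them is uncertain. Of the superoxide dismutases SOD2 rose from 2023 ± 49.4 to 2655 ± 105 CPM and SOD1 (-0.04 ± 0.097) was not called.

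Glycolytic and hypoxia-inducible genes rose by small amounts that depended on the scaling. Of 32 tested 21 rose (65.6%) and none fell, with a median of 0.36. Of all genes tested 8.40% were higher, and of those at over 100 CPM 25.4% were, with a median of 0.16. HK2, hexokinase 2, was at 721, 755 and 793 CPM in proximal and 479, 450.0 and 472 CPM in distal libraries, PKM, pyruvate kinase, at 3549.6, 3694 and 3936 and 2923, 2603 and 3017 CPM, and BNIP3, a mitophagy receptor, at 155, 169 and 169 and 108, 109 and 109.7 CPM. These genes separated the gates. HK1 (0.51 ± 0.09), PGK1 (0.38 ± 0.07), NDRG1 (0.50 ± 0.08), BNIP3L (0.62 ± 0.09) and P4HA2 (0.57 ± 0.08) also rose, whereas ALDOA (0.017 ± 0.19) and SLC16A3 (0.12 ± 0.25) were not called. With library totals 7 members rose and with upper-quartile factors 16, with none fallen in either, and the median of 0.36 became 0.19 and 0.28. Without proximal replicate 3 and distal replicate 2, 3 members fell. PKM was among those not called with library totals. The hypoxia-response core ACGTG was in 11 of 29 of their promoters (37.9%) against 21.6% of all and 26.1% of those of genes tested.

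The other metabolic, stress and death lists differed in how many members were called. Of 19 NRF2 targets 1 rose, NQO1 (0.56 ± 0.09), and 2 fell, while HMOX1 was at 0.065 ± 0.14. The serine synthesis enzymes PHGDH and PSAT1 fell, PHGDH from 22.5 ± 1.56 to 9.91 ± 0.252 CPM and PSAT1 from 8.85 ± 0.306 to 4.66 ± 0.616. They stand in a stress list in which 4 of 17 fell (2 without distal replicate 3) and none rose. The share that fell was 23.5%, against 7.93% of all genes tested. Of 19 p53 and death genes 7 rose (36.8%, 4 genes without distal replicate 3) and 2 fell (10.5%), BCL2A1 rising by 0.67 ± 0.13 and BCL2L11, which encodes the killer protein BIM, falling by 1.06 ± 0.14. Of 24 lysosomal genes 6 rose and none fell, and of 24 proteasome genes likewise 6 and none. That is 25.0% of each list, against 8.40% of all genes tested and 25.4% of those at over 100 CPM. Without distal replicate 3 only 2 lysosomal genes and 1 proteasome gene rose, and with library totals 1 and 0. Of 33 ribosomal protein genes 0 were called by edgeR or DESeq2 and 2 had an unadjusted p under 0.05, with a median of 0.01, and 4 were lower with library totals. Of 31 oxidative phosphorylation genes 2 rose and 1 fell. Without proximal replicate 3 and distal replicate 2 4 ribosomal genes were higher and 6 lower, and 3 oxidative phosphorylation genes were higher and 9 lower.

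Beyond the lists, large changes were ranked among called genes whose libraries did not overlap between the gates. At 20 CPM or more the largest falls were of NPTX1, a neuronal pentraxin, and PTPRF, a receptor tyrosine phosphatase. NPTX1 was at 17.1, 17.5 and 26 CPM in proximal, 135, 129.7 and 139 CPM in distal and 103, 90 and 97.3 CPM in monocultured libraries (log2 fold change -2.73 ± 0.14, adjusted p = 1.22e-07). PTPRF was at 20.1, 20.9 and 19.6 CPM in proximal and 98.2, 95.4 and 112 CPM in distal libraries. Both were several times lower in every proximal library. GDF11 fell from 44.4 ± 5.71 to 9.46 ± 1.27 CPM, the proton channel gene HVCN1 from 23.2 ± 1.84 to 5.49 ± 0.908, and PLD4 from 22.1 ± 3.54 to 7.13 ± 0.298. By absolute loss ZFP36L2, which encodes an RNA-binding protein that speeds the decay of AU-rich transcripts, went from 277 ± 17.5 to 109 ± 18.4 CPM, MRC2, a collagen uptake receptor, from 944 ± 115 to 562 ± 95.1 and COL9A2 from 533 ± 111 to 244 ± 42.2. By absolute gain ANPEP, aminopeptidase N, stood at 4458, 4381 and 5080.0 CPM in proximal and 2792, 2453 and 2822 CPM in distal libraries, and ATP13A3, a polyamine transporter, rose by 0.62 ± 0.10. Among the largest rises by fold at 20 CPM or more was KCNN3, a calcium-activated potassium channel, from 24 ± 0.54 to 54.8 ± 2.63 CPM. LYPLAL1-AS1, an antisense RNA (1.38 ± 0.13), was among them too. In the annotation its exons share no bases with those of another gene. Pairs were counted without strand, so the strand that its reads came from is not known.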

How the data were processed

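RNA of 9 libraries was measured. The authors deposited counts of read pairs per gene name without normalization, in 1 table a group, and the library names in the tables tie each column to its sample. Counting used featureCounts 1.6.3 on GENCODE release 36 without strand, per the file headers, and left out pairs that match several places or genes. Per the submitters' processing notes, Trim Galore 0.6.5, STAR 2.7.6a, R 4.1.3, DESeq2 1.34.0 and GRCh38.p13 were also used, in roles not given in the sources used here.

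All 9 libraries were fitted with edgeR 4.0.16 in R 4.3.3 (filterByExpr with minimum count 10 and minimum total 15, TMM factors, robust quasi-likelihood, 6 residual degrees of freedom, and a biological coefficient of variation of 11.6%). Levels are CPM scaled by TMM factors. Tumour marker sums were compared by exact permutation in scipy 1.17.1. The procedure was tested on simulated data. Promoter windows came from RefSeq (GRCh38.p14), and motifs were searched on both strands.

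The genes named were members of 50 lists (972 genes, 828 tested), those with the smallest p first, and ERBB2. Added were the 15 genes that rose most and the 15 that fell most at 20 CPM or more. The 10 with the largest gain and the 10 with the largest loss in CPM were added too. These added genes came only from called genes whose libraries did not overlap between the gates, so that separation was fixed by the choice. Names of the clone type (AC, AL or AP and digits) were left out of these rankings. The groups compared, the lists and the rule were chosen with earlier results of these data known, so no list is independent evidence of its direction. In the annotation 2304 of 61180 names stand on several sequences, and TNF, 1 of them, was not read further. CCL3L3 and CCL4L2, on 3 sequences each, were read although their counts are uncertain. MT-coded genes were read only as a group and in MT-ATP8. Alternatives were the Wald test of DESeq2 1.42.0, DESeq2-type size factors computed in edgeR, upper-quartile factors, no filter, and at least 50 counts in 3 libraries. Others were 6 libraries only, the replicate number as a block, removal of each library's GC trend, no mitochondrial or 20 most abundant genes, and each library left out in turn. Library totals with no factors, the block with GC removal, and a fit without proximal replicate 3 and distal replicate 2 were chosen after seeing the data.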

Additional observations from a re-analysis of the deposited data

How the results depend on the processing

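Against 1296 genes higher and 1223 lower, removal of each library's GC trend gave 2755 higher, the 6 libraries alone 815, upper-quartile factors 816, and library totals with no factors 515 higher and 2212 lower. Leaving out proximal replicate 3 with distal replicate 2 gave 2733 higher and 2253 lower. Leaving out 1 library at a time gave 757 to 1897 higher and 768 to 1558 lower, and distal replicates 1 and 3 were the libraries whose absence cost most. Of the 2519 calls, 59.7% were kept without distal replicate 3 and 97.9% with the DESeq2 Wald test, and none was called in the opposite direction by any of the 21 alternatives. The cause of these shifts was not tested. With the replicate number as a block 1371 genes were higher and 1249 lower, and with the block and GC removal together 2944 and 1868. Labels do not say that numbers pair the gates, and same-numbered libraries deviated together with correlations of -0.136, 0.296 and 0.199, so they were not taken as pairs.

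Of 388 genes called among the 858 that the naming rule covers, 250 kept their call wherever they were tested. Without proximal replicate 3 and distal replicate 2, 9 genes that were otherwise not called were called with the opposite sign: ALDOA (-0.38), BAX (-0.35), CEBPB (-0.35), CTSD (-0.46), DDIT4 (-0.44), HMOX1 (-0.24), NDUFB8 (-0.68), PSMA7 (-0.25) and SLC16A3 (-0.41). Their highest log2 fold changes over the fits that left out 1 library were 0.17, 0.16, 0.23, 0.23, 0.47, 0.16, 0.33, 0.12 and 0.29, in the same order. With 3 libraries a group and 13581994 to 16447199 pairs each, small changes of scarce genes could not be told from the spread.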

Other observations

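Potassium channel genes, chosen after their values were seen, held rises and falls. KCNN3 and KCNK13 were higher in proximal macrophages (log2 fold changes 1.19 ± 0.10 and 0.75 ± 0.14), whereas KCNQ1 was lower, at 0.963, 1.1 and 0.969 CPM in proximal, 2.19, 1.82 and 3.1 CPM in distal and 7, 5.76 and 5.86 CPM in monocultured libraries, and KCNK5 was lower too (log2 fold change -1.14 ± 0.25). No proximal library overlapped a distal one for these 4 genes. They were picked from called genes, which rarely overlap, and the share of potassium channel genes called was not counted.

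By the gene types of GENCODE release 29, 9.89% of 12230 protein-coding genes were higher and 8.37% lower. Among 1823 long non-coding genes 2.03% were higher and 6.75% lower, and among 772 pseudogenes 2.33% and 5.44%. The gene LGALS12, which encodes a galectin, was 1 of 5 genes with at least 5 pairs in every distal library and 0 in every proximal one, and no gene showed the reverse. Of 32 mitochondrially encoded genes tested, 3 were higher and 0 lower, with a median log2 fold change of -0.008, where 8.40% of all genes tested were higher. MT-ATP8, 1 of these 3, lost its call in 12 of the 21 alternatives.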
